A study of Mus musculus with 12 samples.

Results

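Heat shock proteins are the cell's molecular chaperones, and 35 of their genes were followed here among the 21705 genes listed for mouse heart. The 35 were found by matching gene symbols to a fixed set of cytosolic heat shock proteins and their cochaperones, and all 35 were present in every library and passed the filter on low counts. The set holds 7 small heat shock proteins (small HSPs), 6 members of the HSP70 family, 3 of the HSP110 family, both cytosolic HSP90 genes, 7 DNAJ (HSP40) proteins, 6 cochaperones, the chaperonin pair Hspd1 and Hspe1, and the heat shock transcription factors Hsf1 and Hsf2. The name "cytosolic" does not hold for all of them, since the products of Hspa9, Hspd1 and Hspe1 work in mitochondria and Hsf1 and Hsf2 encode transcription factors.

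The hearts came from female FVB mice given erlotinib at 50 mg/kg/day, sunitinib at 40 mg/kg/day or sorafenib at 30 mg/kg/day for 14 days, or water as the control, with 3 libraries in each of the 4 groups. Erlotinib is an inhibitor of the epidermal growth factor receptor, and sunitinib and sorafenib are kinase inhibitors with many targets, the vascular endothelial growth factor receptors among them. The labels give neither the age of the mice nor how long water was given, and name no batch. They describe 12 heart samples without stating outright that each is a separate animal, so the p-values given here reflect the spread among 12 libraries and no more.

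Small HSPs bind unfolding proteins and hold them in a state that can be refolded, and cardiac muscle keeps large amounts of them beside the contractile apparatus. HSP70 binds and releases clients in a cycle driven by ATP, in which DNAJ proteins deliver the client and start hydrolysis and the HSP110 and BAG proteins release the nucleotide. HSP90 takes over partly folded clients, many of them kinases, with cochaperones that load, time or release them. HSF1 is the factor that raises the inducible members of all these families, through repeats of the unit GAA and its reverse complement TTC in their promoters.

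The letters of that element can be looked for in promoter sequences, and 5 windows that hold a match are printed to show how it appears. They do not cover the whole range, since 11 of the 28 members with a window held no match. All are RefSeq windows of build GRCm38.p6, written 5′ to 3′ on the strand of the gene, 250 bases before and 50 after the start of transcription, with the matches found in capitals. The searched motifs were GAANNTTC and TTCNNGAA for 2 units, each its own reverse complement, and GAANNTTCNNGAA and TTCNNGAANNTTC for 3 units, which are reverse complements of each other and contain the shorter motifs. Hspb1, the member that rose most against control among those that passed, lies at chr5:135887669-135887968 on the plus strand, with 2-unit matches that begin at positions -117 and -97 counted from the start. Chordc1, which has 3 overlapping 3-unit matches around its start, lies at chr9:18292017-18292316 on the plus strand. Hspe1, at chr1:55087898-55088197 on the plus strand, has 2 overlapping 3-unit matches, and its transcript passed no test. The inducible pair Hspa1a, at chr17:34972107-34972406 on the minus strand, and Hspa1b, at chr17:34959189-34959488 on the minus strand, differ at 4 of 300 bases in these windows.
Hspb1: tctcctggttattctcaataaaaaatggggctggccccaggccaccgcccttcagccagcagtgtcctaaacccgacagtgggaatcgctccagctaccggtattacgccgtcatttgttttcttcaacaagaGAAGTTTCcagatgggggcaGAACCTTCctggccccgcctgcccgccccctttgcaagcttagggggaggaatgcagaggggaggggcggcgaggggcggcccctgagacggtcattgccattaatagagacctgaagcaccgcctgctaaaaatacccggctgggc
Chordc1: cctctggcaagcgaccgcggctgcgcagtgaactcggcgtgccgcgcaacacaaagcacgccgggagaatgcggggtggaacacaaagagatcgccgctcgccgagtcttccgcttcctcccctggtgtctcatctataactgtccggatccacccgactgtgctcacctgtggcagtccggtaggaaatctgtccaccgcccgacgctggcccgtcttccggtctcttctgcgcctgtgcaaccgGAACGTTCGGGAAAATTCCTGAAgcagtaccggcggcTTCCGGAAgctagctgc
Hspe1: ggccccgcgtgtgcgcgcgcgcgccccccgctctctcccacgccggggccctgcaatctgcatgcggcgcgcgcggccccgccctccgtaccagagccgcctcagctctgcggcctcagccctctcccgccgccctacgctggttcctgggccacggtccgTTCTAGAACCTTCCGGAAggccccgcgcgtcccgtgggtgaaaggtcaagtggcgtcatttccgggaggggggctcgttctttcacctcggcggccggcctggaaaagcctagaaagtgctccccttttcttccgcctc
Hspa1a: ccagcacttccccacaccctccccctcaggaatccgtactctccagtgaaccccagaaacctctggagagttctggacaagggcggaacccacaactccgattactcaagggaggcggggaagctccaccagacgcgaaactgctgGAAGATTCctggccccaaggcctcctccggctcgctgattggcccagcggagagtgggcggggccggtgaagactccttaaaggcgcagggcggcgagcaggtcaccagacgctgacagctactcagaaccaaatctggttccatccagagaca
Hspa1b: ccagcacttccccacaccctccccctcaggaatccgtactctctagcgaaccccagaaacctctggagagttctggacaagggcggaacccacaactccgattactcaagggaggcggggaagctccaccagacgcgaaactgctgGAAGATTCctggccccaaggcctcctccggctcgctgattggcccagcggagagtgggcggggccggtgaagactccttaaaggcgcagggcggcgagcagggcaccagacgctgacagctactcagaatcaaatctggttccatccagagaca

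RefSeq windows were at hand for 28 of the 35 members, some with several starts, and none for Hspa8, Hspa9, Hsp90aa1, Hsp90ab1, Cryab, Hspb2 or Hsf1. A 2-unit match stood in a window of 17 of the 28 genes (60.7%), against 17% of the 27025 genes in the whole table. A 3-unit match stood in 5 of the 28 (17.9%), against 0.662% of the 27025 genes: Hspd1, Hspe1, Dnajb6, Hsph1 and Chordc1. The set was assembled from heat shock genes, so this share describes it and is no separate finding. A match is a run of letters in a window, not a measured site of binding.

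All libraries were of like depth, with 14304529 to 16534769 expected counts each. All 9 markers of heart muscle cells were measured in every library, and their summed TPM was between 64898 and 73446. TPM is the share of a transcript among all transcripts, corrected for gene length, and was used to compare levels between genes. CPM, counts scaled to the size of each library after TMM normalisation, was used to compare libraries. Fold changes are on the log2 scale with the SE of the edgeR fit, and a gene passed where its Benjamini-Hochberg adjusted p over the 13440 genes tested was under 0.05. In bulk tissue, less RNA per cell and fewer cells of a type cannot be told apart.

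Most chaperone mRNA in these hearts encoded small HSPs. They held on average 67.7% of the summed TPM of the 35 members, followed by HSP70 with 10.3%, HSP90 with 7.45%, the cochaperones with 6.09%, DNAJ proteins with 3.87%, the chaperonin pair with 3.03%, HSP110 with 1.05% and the heat shock factors with 0.452%. Cryab, which encodes alphaB-crystallin, a chaperone of desmin filaments, was the most abundant member with a mean of 3196 TPM over the 12 libraries (range 2786 to 3499.6). Next came Hspb7 with 984 TPM and Hspb6 with 883 TPM, both heart and muscle small HSPs, and then Hsp90ab1 with 569.8 TPM and Hspa8 with 569 TPM, the constitutive HSP90 and HSP70. The stress-inducible HSP70 genes were at the other end of the scale, with Hspa1a at 2.27 TPM (range 0.72 to 5.76) and Hspa1b at 3.93 TPM (range 1.79 to 9.58). Hspa2, at 3.33 TPM, and Hspa1l, at 3.62 TPM, both known for their expression in testis, were as low. The summed TPM of all members was 9160 ± 539 in erlotinib, 8175 ± 717 in sunitinib, 8832 ± 240.1 in sorafenib and 8367 ± 571 in control libraries (SD, n = 3 each), ranges that overlap between every drug and control.

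**Figure D1:**
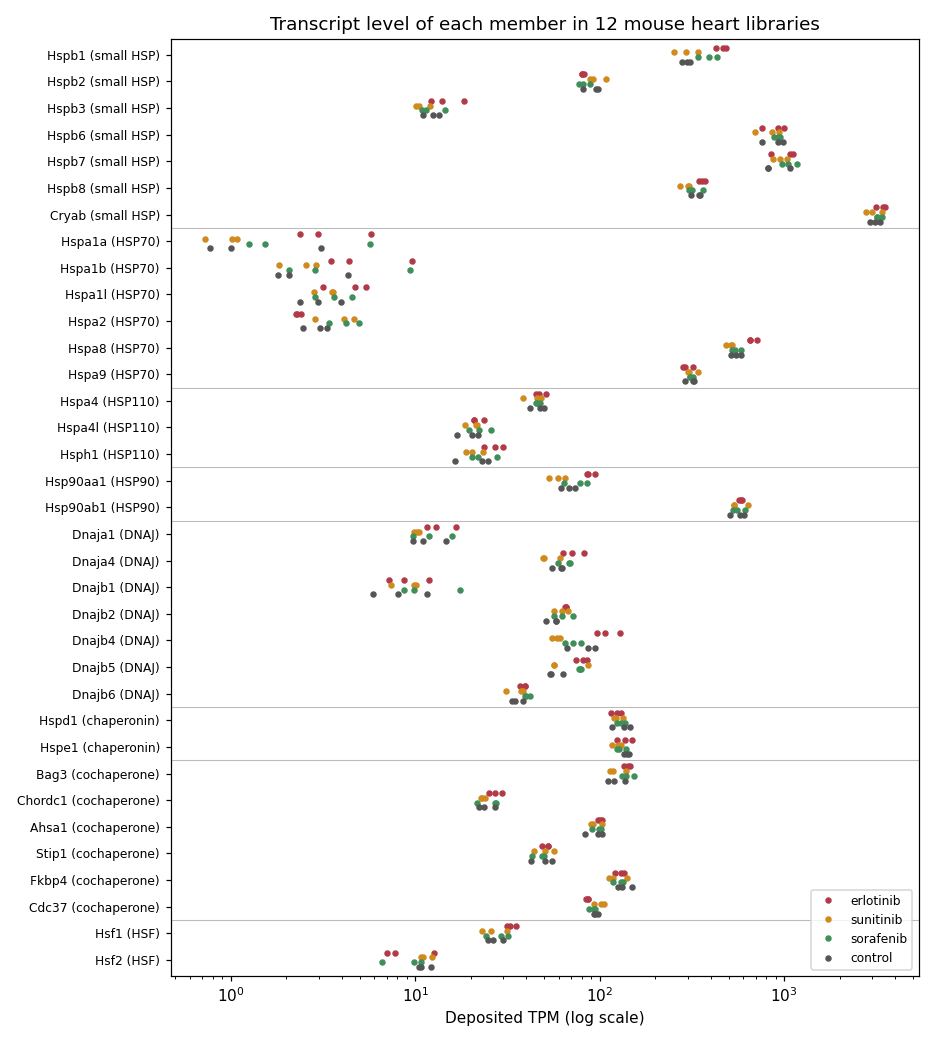
Deposited TPM of each of the 35 members on a log axis, 1 point per library and 3 points per group, in colours given by the legend, ordered by class. Levels run from 0.72 TPM for Hspa1a in its lowest library to 3499.6 TPM for Cryab in its highest, and for most members the spread between libraries is small beside the differences between genes.

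Erlotinib hearts had the highest mean CPM of the 4 groups for 29 of the 35 members, a rank that erlotinib held for 30.6% of the 13440 genes tested. The exceptions were Hspb2, Cdc37 and Hsf2, highest in sunitinib, Hspa2 and Dnajb1, highest in sorafenib, and Hspd1, highest in control. Sunitinib hearts had the lowest mean for 21 of the 35, against 26.6% of all genes tested. Both ranks set means in order and take no account of their spread. Against control, 2 members passed as higher with erlotinib, Hspb1 and Dnajb5, where 0.171% of all genes tested passed as higher and 0.29% in either direction. That count was 0 without Control_1365, Control_1367, Erlotinib_1375 or Erlotinib_1376, 1 without Sorafenib_1372, Sorafenib_1373 or Erlotinib_1374 and 4 without Control_1366. Over all genes tested, 0% passed without Control_1365 or Control_1367, 0.0221% without Erlotinib_1375, 0.0147% without Erlotinib_1376 and 1.73% without Control_1366. The share was 0.199% without Sorafenib_1372, 0.0441% without Sorafenib_1373 and 0.162% without Erlotinib_1374. DESeq2 called 8 members (2.73% of all genes) and limma 1 (0.365%). None passed with sunitinib, where 0% of all genes did, and none with sorafenib, where 0.00744% did. Tested for a difference of any kind between the 4 groups, 7 members passed, Hspb1, Hspa2, Hspa8, Hsp90aa1, Dnaja4, Dnajb4 and Dnajb5, against 5.45% of all genes, and 17 had an unadjusted p under 0.05, against 23.3%.

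The erlotinib values stood above control in most members without passing one by one. The fitted log2 fold change of erlotinib against control was above 0 in 30 of the 35, against 48.2% of all genes. Its median over the members was 0.23, against -0.01 over all genes. At an unadjusted p under 0.05, 16 members were higher and 0 lower, where 7.38% and 8.17% of all genes were. All 3 erlotinib libraries exceeded all 3 control libraries in 18 members, against 10.2% of all genes, and 1 member, Hspa2, lay below without overlap, against 10.4%. For sunitinib against control the value was above 0 in 13 of the 35 members (50.4% of all genes), with a median of -0.02. The sunitinib libraries lay above control without overlap in 1 member (8.33%) and below in 6 (6.22%), with 1 member higher and 4 lower at an unadjusted p under 0.05, where 6.09% and 4.78% of all genes were. For sorafenib against control the value was above 0 in 22 members (49.8%), with a median of 0.05. The sorafenib libraries lay above control without overlap in 6 members (8.61%) and below in 2 (7.7%), with 5 members higher and 1 lower, where 6.86% and 5.54% of all genes were. DESeq2 called 1 member in each of these 2 comparisons, Dnajb4 lower with sunitinib and Dnajb5 higher with sorafenib, where it called 0.61% and 1.3% of all genes. Limma called 0 members, and 0% and 0.0298% of all genes. The 3 drugs share the same control libraries.

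Erlotinib against sunitinib gave the most calls of the 6 comparisons. Of the 35 members 13 were higher and 1 lower at an adjusted p under 0.05 (edgeR), against 5.52% and 6.35% of all genes tested (14 in either direction, against 11.9%). The fitted value was above 0 in 31 of the 35 (48.7% of all genes), and the erlotinib libraries lay above the sunitinib libraries without overlap in 23 (15.6%) and below in 3 (18.1%). At an unadjusted p under 0.05, 21 were higher and 2 lower (13.2% and 15%). The 13 were Hspb1, Hspb3, Hspb8, Hspa8, Hspa4, Hsph1, Hsp90aa1, Dnaja4, Dnajb4, Dnajb5, Dnajb6, Bag3 and Chordc1, and Hspa2 was lower. Hspb1, Hspa8, Hsp90aa1, Dnaja4 and Dnajb4 passed in all 20 alternative analyses, which include leaving out each of the 12 libraries in turn. The share of all genes that passed in all 20 was not computed. Of the 12 fits that leave out 1 library, Hspb8 passed in 9, and Dnajb5 and Bag3 in 8 each. Hspb3 and Hspa2 passed in 7 each, Hspa4, Dnajb6 and Chordc1 in 6 each, and Hsph1 in 4. The count of calls was between 5 and 15 when 1 library was left out, with 5 without Sunitinib_1369 (5.77% of all genes) and 5 without Erlotinib_1376 (2.97%). Against sorafenib, 2 members were higher with erlotinib, Dnajb4 and Hspa8 (1.14% of all genes), and Hspa2 was lower (1.56%), 3 in either direction (2.7%). At an unadjusted p under 0.05, 9 were higher and 1 lower (8.11% and 11.2%), and 32 of the 35 fitted values were above 0 (49.9%). The erlotinib libraries lay above sorafenib without overlap in 7 members (11.3%) and below in 1 (13.8%). The count of calls fell to 0 without Sorafenib_1371, Sorafenib_1373, Erlotinib_1375 or Erlotinib_1376, and to 1 without Sorafenib_1372 or Erlotinib_1374, and in these 6 fits 0.00736% to 1.4% of all genes passed. No member passed between sunitinib and sorafenib, where 0.0372% of all genes were higher and 0% lower, although 1 was higher and 7 lower in sunitinib at an unadjusted p under 0.05 (4.86% and 5% of all genes). The fitted value was above 0 in 5 of the 35 (49.8%), and the sunitinib libraries lay above sorafenib without overlap in 2 members (6.99%) and below in 10 (7.57%). DESeq2 called 1 member there, Hsp90aa1 (1.03% of all genes), and limma 0 (0.0223%).

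**Figure D2:**
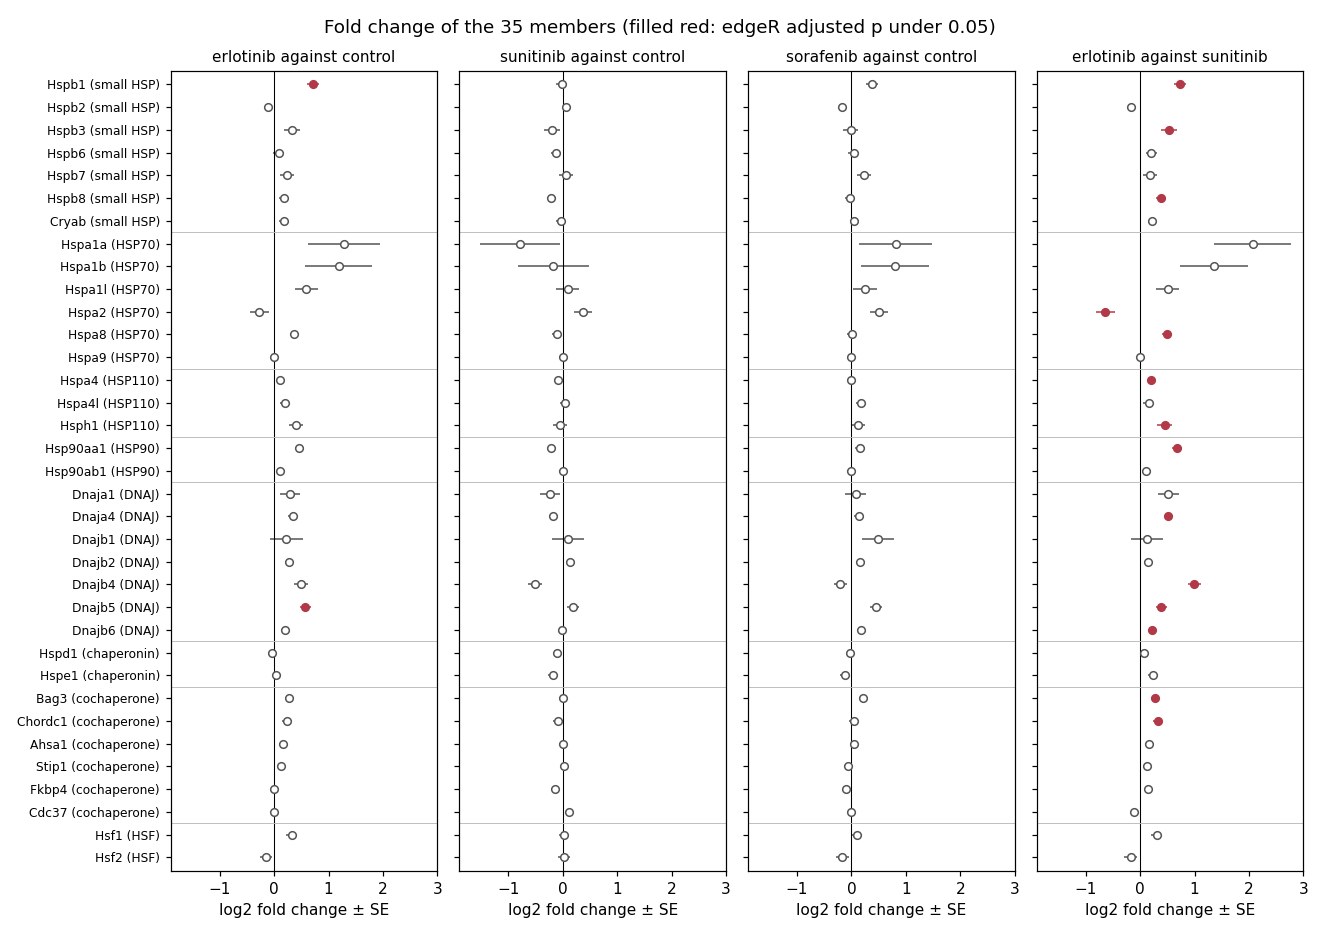
Fitted log2 fold change ± SE of each member, 1 row per member, in 4 comparisons, with filled red points for an edgeR adjusted p under 0.05. Points in the panel of erlotinib against control lie right of 0 for 30 of 35 members with 2 filled, the panels of sunitinib and sorafenib against control have no filled point, and that of erlotinib against sunitinib has 14.

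Among the small HSPs, Hspb1 rose with erlotinib against control. It encodes HSP25 (HSP27 in human), which binds actin and is phosphorylated by the kinase MAPKAPK2. Hspb1 was at 398, 409 and 464 CPM in the erlotinib libraries, 268, 218 and 278 CPM in sunitinib, 343, 291 and 373 CPM in sorafenib and 265, 268 and 243 CPM in control. Every erlotinib library was above every other library, and every sorafenib library was above every control library. The log2 fold change of erlotinib against control was 0.71 ± 0.11 (edgeR adjusted p = 0.0385), a ratio of means of 1.64, and against sunitinib it was 0.73 ± 0.11 (adjusted p = 0.00307). The sorafenib difference from control, 0.38 ± 0.11, did not pass (adjusted p = 0.194). The erlotinib call against control was lost without Control_1365, Control_1367, Erlotinib_1375 or Erlotinib_1376, with adjusted p between 0.0161 and 0.199 over the 12 fits that leave out 1 library, and the log2 value stayed between 0.64 and 0.76.

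Hspb8, which encodes HSP22, the partner of BAG3 in the removal of damaged muscle proteins, was at 661, 648 and 726 CPM with erlotinib, 498, 481 and 583 CPM with sunitinib, 554, 554 and 653 CPM with sorafenib and 618, 609.6 and 575 CPM in control. Its erlotinib libraries were above all sunitinib and all control libraries. The difference passed against sunitinib (0.38 ± 0.09, edgeR adjusted p = 0.0185) and not against control (0.17 ± 0.09, adjusted p = 0.374). Hspb3, a muscle small HSP of low level, was at 9.41, 13.4 and 11.1 CPM with erlotinib, 7.96, 7.55 and 8.01 CPM with sunitinib, 7.99, 10.2 and 8.35 CPM with sorafenib and 9.72, 8.76 and 8.48 CPM in control. It was higher with erlotinib than with sunitinib (0.53 ± 0.14, adjusted p = 0.0342), and its erlotinib and control libraries overlapped.

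Cryab was at 2678, 2806 and 3009 CPM with erlotinib, 2489, 2210.0 and 2614 CPM with sunitinib, 2597, 2485 and 2707 CPM with sorafenib and 2617, 2558 and 2339 CPM in control. The erlotinib libraries lay just above the control and sunitinib libraries, and no edgeR test passed (0.18 ± 0.08 against control, adjusted p = 0.309). Cryab and Hspb2 had fractional counts in all 12 libraries, which arise where reads fit more than 1 gene, so both are uncertain. Hspb2 was the 1 small HSP with a fitted value below 0 for erlotinib against control (-0.11 ± 0.07, adjusted p = 0.498). Hspb6 (HSP20) and Hspb7 gave 0.08 ± 0.10 and 0.23 ± 0.13 in that comparison, with overlapping libraries. In all, 1 of the 7 small HSPs passed as higher with erlotinib against control (0.171% of all genes) and 3 against sunitinib (5.52%). None passed as lower in these comparisons (0.119% and 6.35% of all genes).

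In the HSP70 family, Hspa8 was higher with erlotinib than with sunitinib, and, in the fit of all libraries, than with sorafenib. Hspa8 encodes HSC70, the HSP70 that folds new proteins and uncoats clathrin vesicles in unstressed cells. Hspa8 was at 1483, 1531 and 1529 CPM with erlotinib, 1009, 1022 and 1209.5 CPM with sunitinib, 1135, 1128 and 1254 CPM with sorafenib and 1081, 1267 and 1161 CPM in control. The erlotinib libraries were close together and above all 9 others. The log2 fold change was 0.49 ± 0.09 against sunitinib (edgeR adjusted p = 0.00563), 0.37 ± 0.09 against sorafenib (adjusted p = 0.0405) and 0.37 ± 0.09 against control, which did not pass (adjusted p = 0.079). Over the 12 fits that leave out 1 library, the adjusted p against control was between 0.0365 and 0.323, and it passed in 2 of them. The sunitinib call held in all 12, and the sorafenib call in 4 of them, with an adjusted p between 0.027 and 0.152. Hspa9, mitochondrial HSP70, averaged 958 ± 29.8 CPM with erlotinib, 954 ± 39.8 CPM with sunitinib, 954 ± 7.46 CPM with sorafenib and 955 ± 37.5 CPM in control (SD, n = 3 each), and its highest library was 1.09 times its lowest. Hspa1l, another gene with fractional counts in all libraries, gave 0.59 ± 0.21 for erlotinib against control (adjusted p = 0.216).

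Hspa2 was the 1 member that passed as lower with erlotinib. It was at 6.14, 6.21 and 6.41 CPM with erlotinib, 9.66, 11.7 and 7.94 CPM with sunitinib, 10.9, 8.53 and 12.8 CPM with sorafenib and 8.47, 6.85 and 7.28 CPM in control. All erlotinib libraries were below all other libraries. It was lower with erlotinib than with sunitinib (-0.64 ± 0.17, edgeR adjusted p = 0.0324) and than with sorafenib (-0.78 ± 0.17, adjusted p = 0.0364). The difference from control was -0.27 ± 0.18 and did not pass (adjusted p = 0.501). Each call held in 7 of the 12 fits that leave out 1 library, and neither held when the atrial marker score was a covariate.

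Hspa1a and Hspa1b, the HSP70 genes that heat and protein damage induce most, varied more over the 12 libraries than any other member. Hspa1a was at 17.2, 8.37 and 7.28 CPM with erlotinib, 2.61, 3.03 and 2.18 CPM with sunitinib, 4.34, 3.44 and 16.1 CPM with sorafenib and 2.14, 3.04 and 8.12 CPM in control. Hspa1b was at 28.7, 9.95 and 13.4 CPM with erlotinib, 6.62, 8.07 and 5.55 CPM with sunitinib, 5.92, 7.82 and 26.4 CPM with sorafenib and 5.03, 6.29 and 11.4 CPM in control. Erlotinib_1374 and Sorafenib_1373 stood far above the other libraries for both genes, and Control_1367 was the highest of the controls. The highest library was 8.06 times the lowest for Hspa1a and 5.71 times for Hspa1b. The split of reads between these near-identical genes is uncertain, as fractional counts stood in all 12 libraries, so their counts were also summed. The sum was 28.3 ± 15.3 CPM with erlotinib and 12.0 ± 6.62 CPM in control (SD, n = 3 each), a log2 fold change of 1.22 ± 0.64 that did not pass (edgeR adjusted p = 0.411).

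The same pair of libraries led for other members. Erlotinib_1374 was the highest erlotinib library and Sorafenib_1373 the highest sorafenib library for 10 members: Hspa1a, Hspa1b, Hsph1, Hsp90aa1, Hsp90ab1, Dnaja1, Dnajb1, Chordc1, Stip1 and Fkbp4. Both were the highest of their group for 10.4% of all genes tested. Dnajb1, the classical HSP40 partner of inducible HSP70, was at 28.5, 16.4 and 21.4 CPM with erlotinib, 20.7, 21.7 and 18.1 CPM with sunitinib, 19.6, 21.2 and 39.1 CPM with sorafenib and 18.1, 14.2 and 24.1 CPM in control, and the groups overlapped. Over all 35 members, the mean of log2 CPM minus each gene's own mean was 0.22, 0.15 and 0.19 in the erlotinib libraries, -0.13, -0.15 and -0.13 in sunitinib, -0.07, -0.01 and 0.18 in sorafenib and -0.09, -0.12 and -0.04 in control. Sorafenib_1373 thus lay among the erlotinib libraries on this score, and the other sorafenib libraries lay near the controls. The score weighs all members alike. In Sorafenib_1373, Hspa1a and Hspa1b, whose counts are low and uncertain, add more to it than any other member. A score without this pair was not computed, so the place of Sorafenib_1373 may rest on them.

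**Figure D3:**
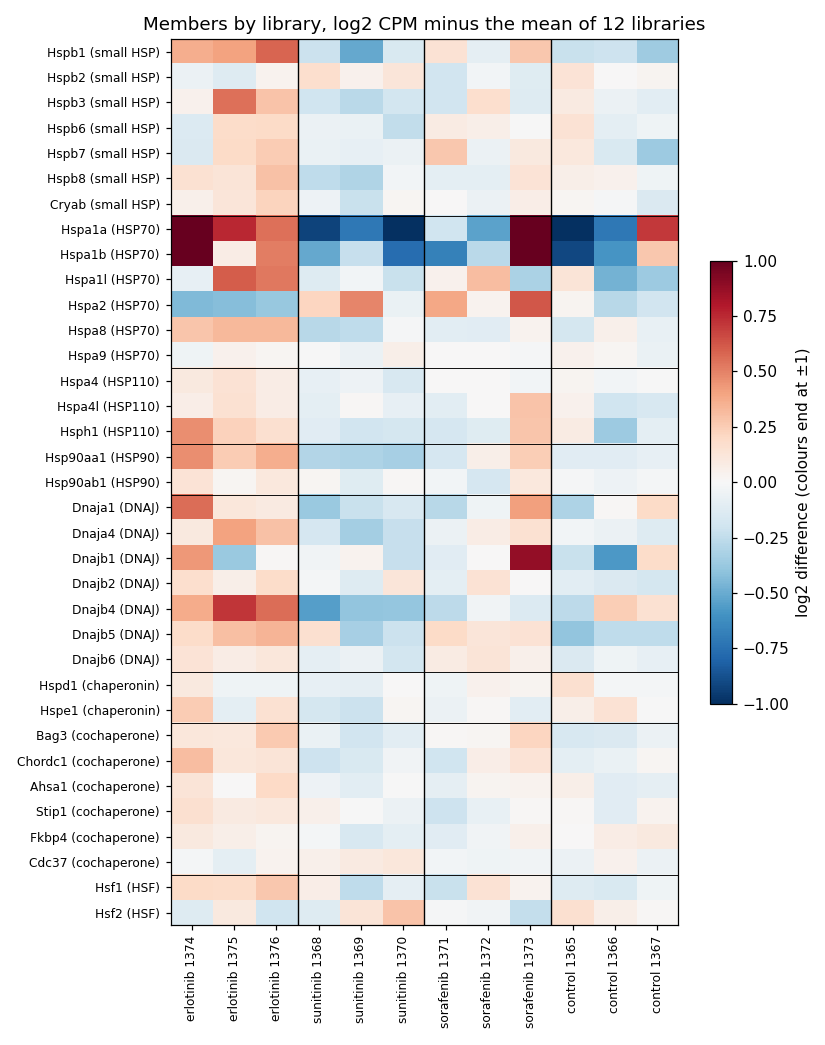
Log2 CPM of each member minus its mean over the 12 libraries, 1 column per library and 1 row per member, with colours that end at ±1. The 3 erlotinib columns are red in most rows and the sunitinib columns blue, Hspa2 shows the opposite, and Hspa1a and Hspa1b are darkest in Erlotinib_1374 and Sorafenib_1373.

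Of the HSP110 genes, the nucleotide exchange factors of HSP70, 2 of 3 were higher with erlotinib than with sunitinib (5.52% of all genes). The call held in 4 of the 12 fits that leave out 1 library for Hsph1, and in 6 for Hspa4. None of the 3 genes passed against control (0.29% of all genes in either direction). Hsph1, the inducible HSP105, was at 112, 94.6 and 90.3 CPM with erlotinib, 74.7, 70.9 and 71.6 CPM with sunitinib, 72.1, 74.5 and 98.1 CPM with sorafenib and 85.8, 62.8 and 75.7 CPM in control. The erlotinib libraries were above all sunitinib and control libraries, by a log2 fold change of 0.45 ± 0.13 against sunitinib (edgeR adjusted p = 0.0465) and 0.40 ± 0.13 against control (adjusted p = 0.186). Hspa4 was at 233, 241 and 229 CPM with erlotinib, 206, 211 and 194 CPM with sunitinib, 218, 218 and 213 CPM with sorafenib and 222, 213 and 217 CPM in control. Its groups were tight, and a difference of 0.20 ± 0.06 from sunitinib passed (adjusted p = 0.0342). Hspa4l gave 0.16 ± 0.09 in that comparison and 0.20 ± 0.10 against control, and passed neither.

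Of the HSP90 pair, Hsp90aa1 was higher with erlotinib than with sunitinib. Hsp90aa1, the inducible form, was at 282, 244 and 262 CPM with erlotinib, 166, 165 and 162 CPM with sunitinib, 182, 213 and 242 CPM with sorafenib and 189, 189 and 193 CPM in control. The erlotinib libraries were the highest and the sunitinib libraries the lowest of all 12, without overlap with any other group. The log2 fold change was 0.67 ± 0.09 for erlotinib against sunitinib (edgeR adjusted p = 0.0017) and 0.47 ± 0.09 against control, which fell just short (adjusted p = 0.0537, and between 0.0375 and 0.234 with 1 library left out). Sunitinib against control gave -0.21 ± 0.09 (adjusted p = 0.429). Hsp90ab1, the constitutive form, was at 1584, 1467 and 1554 CPM with erlotinib, 1462, 1329.6 and 1457 CPM with sunitinib, 1414, 1284 and 1550.1 CPM with sorafenib and 1429, 1393 and 1427 CPM in control. It passed no test, with 0.12 ± 0.08 for erlotinib against control (adjusted p = 0.5). The difference between the responses of both genes was not tested.

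Of the 7 DNAJ genes, 4 were higher with erlotinib than with sunitinib (5.52% of all genes) and none was lower (6.35%). Dnajb4 encodes an HSP40 that is abundant in striated muscle. Dnajb4 was at 254, 321 and 288 CPM with erlotinib, 134, 149 and 149.5 CPM with sunitinib, 163, 192 and 178 CPM with sorafenib and 163, 232 and 218 CPM in control. The erlotinib libraries were the highest and the sunitinib libraries the lowest of all 12, with sorafenib and control overlapping between them. The log2 fold change was 1.00 ± 0.12 for erlotinib against sunitinib (edgeR adjusted p = 0.00141), and 0.70 ± 0.12 against sorafenib (adjusted p = 0.0263, passing in 7 of the 12 fits that leave out 1 library). Against control, erlotinib gave 0.49 ± 0.12 (adjusted p = 0.0997) and sunitinib -0.51 ± 0.12 (adjusted p = 0.271). Control_1365 lay below the other controls for this gene. Without it the sunitinib difference passed, with an adjusted p of 0.0476.

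Dnajb5, an HSP40 that takes part in a redox-sensitive complex with a histone deacetylase in heart muscle, was the second member to pass against control. It was at 188, 204 and 209 CPM with erlotinib, 185, 131 and 143 CPM with sunitinib, 189, 181 and 183 CPM with sorafenib and 126, 139 and 139 CPM in control. All erlotinib and all sorafenib libraries were above all control libraries, and Sunitinib_1368 lay with them while the other sunitinib libraries lay near control. The log2 fold change against control was 0.57 ± 0.10 with erlotinib (edgeR adjusted p = 0.0447), 0.45 ± 0.10 with sorafenib (adjusted p = 0.125) and 0.19 ± 0.10 with sunitinib (adjusted p = 0.559). The erlotinib call held in 4 of the 12 fits that leave out 1 library. Against sunitinib the erlotinib value was 0.39 ± 0.10 (adjusted p = 0.0324).

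Dnaja4, a type A DNAJ protein, was at 201, 247 and 229.7 CPM with erlotinib, 166, 148 and 159.5 CPM with sunitinib, 180.3, 198 and 208 CPM with sorafenib and 184, 180.2 and 171 CPM in control. The sunitinib libraries were below all others, and the difference of 0.52 ± 0.08 between erlotinib and sunitinib passed (edgeR adjusted p = 0.00426), while that of 0.34 ± 0.08 from control did not (adjusted p = 0.0912). Dnajb6, which holds back protein aggregates and is mutated in a human limb-girdle muscular dystrophy, was at 97.0, 93.2 and 95.7 CPM with erlotinib, 83.1, 85.1 and 77.8 CPM with sunitinib, 93.5, 96.7 and 91.8 CPM with sorafenib and 80.1, 85.8 and 83.5 CPM in control. Erlotinib and sorafenib libraries were alike and above both other groups, and 0.22 ± 0.06 for erlotinib against sunitinib passed (adjusted p = 0.0302). Dnajb2 was at 149.6, 139 and 152 CPM with erlotinib, 132, 122 and 145 CPM with sunitinib, 125, 147 and 134 CPM with sorafenib and 124, 121 and 118 CPM in control, with erlotinib above control in all libraries but not passing (0.28 ± 0.08, adjusted p = 0.131). Dnaja1, whose counts were fractional in all libraries and are uncertain, gave 0.29 ± 0.19 against control. Of the 7 DNAJ genes 7 had a fitted value above 0 for erlotinib against control (48.2% of all genes) and 1 passed as higher (0.171%).

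**Figure D4:**
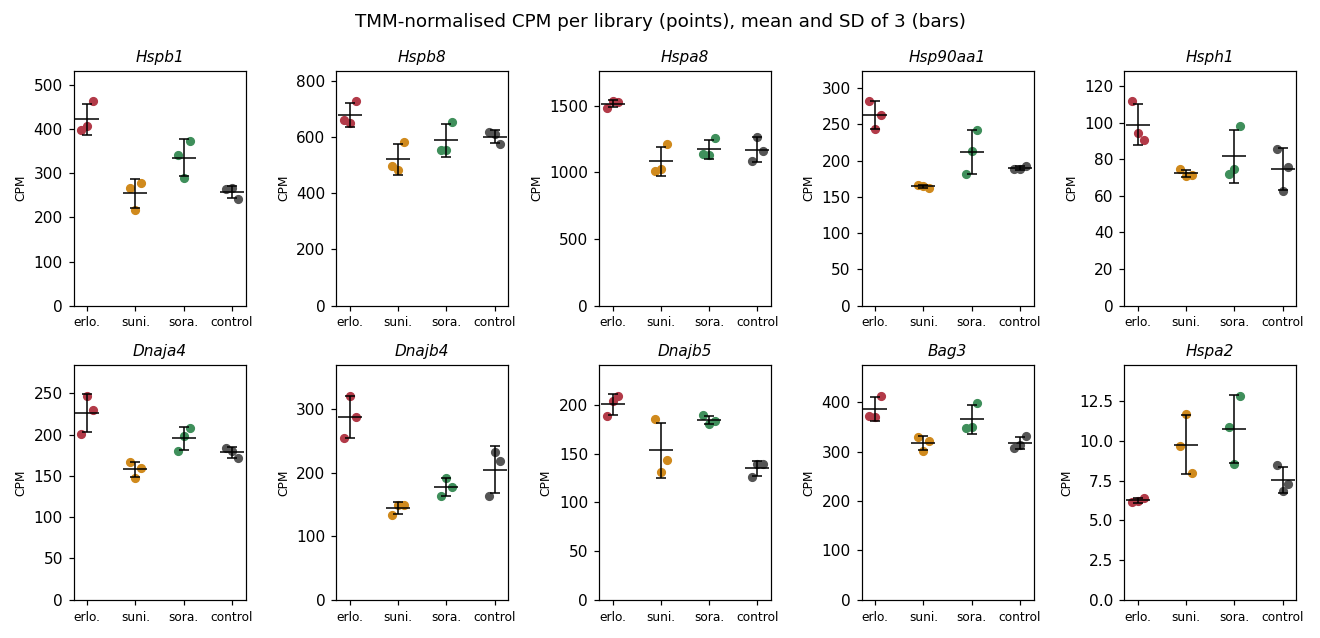
TMM-normalised CPM of 10 members in each library, as points, with the mean and SD of the 3 libraries as bars, for erlotinib, sunitinib, sorafenib and control from left to right, on axes that start at 0. Hspb1, Hspa8, Hsp90aa1 and Dnajb4 have erlotinib points above all others, and Hspa2 has erlotinib points below all others.

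Bag3 and Chordc1 were the cochaperones that passed, both between erlotinib and sunitinib. Bag3 binds HSP70 and Hspb8 and sends damaged filamin to autophagy in muscle. Bag3 was at 373, 370.2 and 414 CPM with erlotinib, 329.9, 302 and 321 CPM with sunitinib, 348, 350.4 and 399.6 CPM with sorafenib and 308, 313 and 331 CPM in control. Erlotinib and sorafenib libraries were above both other groups. The log2 fold change of erlotinib was 0.28 ± 0.07 against sunitinib (edgeR adjusted p = 0.0294) and 0.28 ± 0.07 against control (adjusted p = 0.109). Chordc1, an HSP90 cochaperone whose promoter is printed above, was at 68.6, 59.7 and 60.5 CPM with erlotinib, 47.9, 49.6 and 53.9 CPM with sunitinib, 48, 57.8 and 60.7 CPM with sorafenib and 51.5, 52.8 and 55.9 CPM in control. Erlotinib lay above sunitinib and control without overlap, and 0.32 ± 0.09 against sunitinib passed (adjusted p = 0.0401).

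The other 4 cochaperones passed no test in edgeR: Ahsa1, which stimulates the HSP90 ATPase, Stip1, which bridges HSP70 and HSP90, Fkbp4, which serves steroid receptors, and Cdc37, which brings kinases to HSP90. For erlotinib against control they gave 0.16 ± 0.07, 0.13 ± 0.07, 0.00 ± 0.06 and -0.00 ± 0.06 in that order. Cdc37 was highest in sunitinib, with 189.8 ± 4.01 CPM against 176 ± 7.06 CPM in control (SD, n = 3 each). That is a log2 difference of 0.11 ± 0.06 that did not pass (adjusted p = 0.525).

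Hspe1 and Hspd1 form the mitochondrial chaperonin. Hspe1 was at 114, 89.8 and 107 CPM with erlotinib, 85.0, 82.6 and 97.4 CPM with sunitinib, 92.1, 96.7 and 89.3 CPM with sorafenib and 99.6, 106 and 95.8 CPM in control, with all groups overlapping control. Hspd1 gave -0.03 ± 0.07 and Hspe1 0.04 ± 0.09 for erlotinib against control. Hsf1 was at 50.0, 49.9 and 53.0 CPM with erlotinib, 45.9, 36.8 and 41.3 CPM with sunitinib, 37.6, 48.6 and 45.0 CPM with sorafenib and 40.2, 39.4 and 42.6 CPM in control. Its erlotinib libraries were above all others, and the differences of 0.32 ± 0.10 from control (edgeR adjusted p = 0.157) and 0.30 ± 0.10 from sunitinib (adjusted p = 0.0638) did not pass. Hsf2 gave -0.15 ± 0.12 for erlotinib against control. HSF1 is controlled mainly by its assembly into trimers, which mRNA levels do not show.

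Promoter matches can be set beside these values for the 28 genes with a window. Of the 11 members higher in erlotinib than in sunitinib that have one, 9 held a 2-unit match and 3 a 3-unit match (Dnajb6, Hsph1 and Chordc1). Of the 17 other members, 8 held a 2-unit match and 2 a 3-unit match (Hspd1 and Hspe1). The windows of Dnajb5 and Hspa4, which passed, and of Hspa2, which was lower, held no match.

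Over 5 lists of related chaperones, 4 of the 84 genes tested (4.76%) passed as higher in erlotinib against sunitinib, a share near the 5.52% of all genes. These 5 lists leave out the chaperones of the endoplasmic reticulum, which are given in the next paragraph and passed in a larger share. Of 23 other DNAJ genes tested, Dnajc11 rose (0.31 ± 0.07, edgeR adjusted p = 0.0176) in erlotinib against sunitinib. Of 29 other HSP70 and HSP90 cochaperones, Bag2 (0.31 ± 0.09, adjusted p = 0.0403) and Ppid (0.22 ± 0.06, adjusted p = 0.0408) rose in that comparison. None of 13 genes of the cytosolic chaperonin TRiC and of prefoldin passed there, and none of 9 other mitochondrial chaperones and proteases passed against sunitinib. Grpel2, one of the latter, was lower with erlotinib than with sorafenib (-0.33 ± 0.08, edgeR adjusted p = 0.0372). Sorafenib was the group that stood apart, with a mean of 40.2 CPM, beside 31.9 CPM with erlotinib, 31.8 CPM with sunitinib and 30.3 CPM in control. Of 10 other heat-inducible genes, Serpinh1, the collagen chaperone HSP47, rose against sunitinib (0.68 ± 0.18, adjusted p = 0.0356). None of these lists had a gene that passed for erlotinib against control. The medians of erlotinib against sunitinib were 0.02 for the other cochaperones and 0.08 for TRiC and prefoldin, beside 0.22 for the 35 members.

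Chaperones of the endoplasmic reticulum differed between drugs. Of 17 tested, 9 were higher with erlotinib than with sunitinib, Hspa5, Hsp90b1, Calr, Pdia3, Pdia6, Dnajb11, Sdf2l1, Manf and Creld2, and 5 were higher than with sorafenib, Hsp90b1, Calr, Pdia3, Pdia6 and Manf. Against control none passed, and the median was 0.09 with erlotinib, -0.22 with sunitinib and -0.22 with sorafenib. Hsp90b1, the HSP90 of this compartment, was at 433, 378 and 400.4 CPM with erlotinib, 311, 303 and 312 CPM with sunitinib, 304, 341 and 326 CPM with sorafenib and 355, 370.4 and 381 CPM in control. Its control libraries thus lay above all sunitinib and sorafenib libraries and near the erlotinib libraries. The cytosolic members differed among themselves in this. Hspb1 had control libraries level with sunitinib and below erlotinib. Hsp90aa1, Dnaja4 and Dnajb4 had every control library above every sunitinib library, as Hsp90b1 did.

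Among 8 kinases and Z-disc partners of the small HSPs, Flnc rose with erlotinib against sunitinib. Flnc encodes filamin C, a client of Bag3 and Hspb8. It was at 503, 906 and 721 CPM with erlotinib, 406, 322 and 317 CPM with sunitinib, 475, 456 and 540.4 CPM with sorafenib and 453, 399 and 355 CPM in control. The erlotinib libraries were above all sunitinib and control libraries (1.03 ± 0.19 against sunitinib, edgeR adjusted p = 0.00855, and 0.82 ± 0.19 against control, adjusted p = 0.09).

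Gene lists of other responses were measured in the same libraries. Immediate early genes, which answer acute stimuli within minutes, had a fitted value above 0 for erlotinib against control in 21 of 22 genes (48.2% of all genes). Their median was 0.95 and none passed. Their summed TPM was 588 to 775 in erlotinib, 288 to 471 in sunitinib, 387 to 438 in sorafenib and 289 to 482 in control libraries, with none of the 22 at 0 in all libraries. Junb, one of them, was at 70.1, 71.4 and 71.9 CPM with erlotinib, 33.8, 40.2 and 22.5 CPM with sunitinib, 38.1, 29.3 and 31.8 CPM with sorafenib and 30.3, 38.4 and 43.2 CPM in control (1.14 ± 0.19 for erlotinib against sunitinib, edgeR adjusted p = 0.00573). The cold-inducible genes Cirbp and Rbm3 gave -0.45 ± 0.16 and -0.46 ± 0.15 for erlotinib against control, below all control libraries and not passing (adjusted p = 0.222 and 0.184). Sorafenib against control gave -0.49 ± 0.16 and -0.33 ± 0.15 (edgeR adjusted p = 0.27 and 0.396). Sunitinib against control gave -0.19 ± 0.16 and -0.16 ± 0.15 (edgeR adjusted p = 0.713 and 0.741). The lower values were thus not particular to erlotinib. The part of these genes in the chaperone values was not tested.

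Markers of other cell types differed between libraries as well. The summed TPM of 11 atrial and conduction markers, of which 10 were tested, was 245 to 685 in erlotinib, 84.6 to 1252.8 in sunitinib, 183 to 973 in sorafenib and 502 to 776.5 in control libraries. Sbk2, Hcn4 and Kcnj3 were among the markers that were lower with erlotinib than with sunitinib. In a fit with this list's score as a covariate, the members that passed were 8 for erlotinib against sunitinib, Hspb1, Hspb8, Hspa8, Hspa4, Hsp90aa1, Dnaja4, Dnajb4 and Dnajb6, and 0 for erlotinib against control. Of all genes tested, 8.66% and 0% passed in that fit, and the median over the members was 0.23 in both comparisons, beside 0.22 and 0.23 without the covariate. Neutrophil markers, 6 genes of which 5 were tested, summed to 30.2 to 162 TPM in erlotinib, 15.0 to 31.7 TPM in sunitinib, 8.80 to 45.9 TPM in sorafenib and 11.6 to 54.1 TPM in control libraries. No marker of these 2 lists was at 0 in all libraries, and the part of neutrophils in the chaperone values was not tested.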

How the data were processed

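RNA of 12 mouse heart libraries was measured, polyA RNA made into stranded libraries per the labels' protocols. Per the submitters' processing notes, RSEM, Picard 1.88, SAMtools 1.2 and build mm9 were used. Which aligner, RSEM version and annotation were used is not given in the sources used here. Deposited by the authors were, per gene and library, expected counts (estimated reads, fractional where reads fit several genes), TPM, and a scaled signal, the product of the expected count and 1 factor per library. The deposited TPM summed to 54.9% to 60.8% of the full total in each library, so the listed genes are part of a larger set.

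Expected counts were rounded to whole numbers and filtered with filterByExpr, which kept 13440 of 21705 genes. TMM factors were between 0.949 and 1.04. A robust quasi-likelihood model of edgeR 4.0.16 (R 4.3.3), with 1 coefficient per group, was fitted to all 12 libraries, and all 6 contrasts and a test of any difference were read from it. Tests were two-sided, with Benjamini-Hochberg adjustment over all genes tested. The SE is the log2 fold change over the square root of F. The biological coefficient of variation was 0.128. The fit was tested on simulated counts. With 3 libraries against 3 an exact permutation test cannot go below 0.1, so none was used.

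The members, classes and 19 other gene lists were chosen with earlier results of these data known. Values of every library are given for members with adjusted p under 0.05 in any of the 7 tests, for those without overlap with control at p under 0.01, and for the most abundant of each class. Hspa1a, Hspa1b and Dnajb1 were added for their spread after their values were seen. In the other lists, genes that passed are named, except for some that are not reported here, and examples by smallest p. Alternatives were DESeq2 1.42.0, RLE normalization, no filter, TMM factors without the 20 most abundant genes, a fit of the 2 groups compared alone, limma 3.58.1 on log2 of the scaled signal plus 1, the atrial marker score as a covariate, leaving out each library, and, chosen after seeing the data, Hspa1a and Hspa1b summed. Promoters are from RefSeq (GRCm38.p6), matched by gene symbol or ID. Since the files use mm9, no other coordinates are given. No pairing, batch or date is in the labels.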

Additional observations from a re-analysis of the deposited data

Results flagged for a closer look

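Differences between drugs were flagged where the test of erlotinib against sunitinib or against sorafenib itself passed (edgeR adjusted p under 0.05), since the drugs then differ under the same contrast with control. For erlotinib against sunitinib the log2 differences were 0.73 for Hspb1, 0.53 for Hspb3, 0.38 for Hspb8, -0.64 for Hspa2, 0.49 for Hspa8, 0.20 for Hspa4, 0.45 for Hsph1, 0.67 for Hsp90aa1, 0.52 for Dnaja4, 1.00 for Dnajb4, 0.39 for Dnajb5, 0.22 for Dnajb6, 0.28 for Bag3 and 0.32 for Chordc1. For erlotinib against sorafenib they were -0.78 for Hspa2, 0.37 for Hspa8 and 0.70 for Dnajb4. Both comparisons use the same 3 erlotinib libraries. Groups of 3 are too small for a test of single outlying libraries.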

How the results depend on the processing

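No paired analysis was possible because the libraries of the groups compared share no replicate number. No fold change of a member changed direction past its threshold under any alternative. DESeq2 called 1 member for sunitinib against control (0.61% of all genes), 1 for sorafenib against control (1.3%) and 8 for erlotinib against control (2.73%). It called 1 for sunitinib against sorafenib (1.03%), 5 for erlotinib against sorafenib (6.16%) and 18 for erlotinib against sunitinib (14.4%). For any difference among the groups it called 12 (12.4%). Limma called 1 member for erlotinib against control (0.365% of all genes) and 8 for erlotinib against sunitinib (12.7%). When the atrial marker score was a covariate, the counts were 0 for erlotinib against control, 8 for erlotinib against sunitinib and 4 for any difference, where 0%, 8.66% and 2.5% of all genes passed, against 0.29%, 11.9% and 5.45% without the covariate, and the median over the members was 0.23 in both contrasts. With no filter or with only the 2 groups compared, 3 members passed for erlotinib against control, where 0.329% and 0.214% of all genes did.

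Leaving out 1 library at a time gave 0 to 1 members for sunitinib against control (1 without Control_1365, Dnajb4, with 0.0883% of all genes). It gave 0 for sorafenib against control and 0 to 1 for sunitinib against sorafenib (1 without Sunitinib_1368, Dnajb5, with 0.272% of all genes). For erlotinib against control it gave 0 to 4. The count was 0 without Control_1365 (0% of all genes), Control_1367 (0%), Erlotinib_1375 (0.0221%) or Erlotinib_1376 (0.0147%). It was 1 without Sorafenib_1372 (0.199%), Sorafenib_1373 (0.0441%) or Erlotinib_1374 (0.162%), and 4 without Control_1366 (1.73%). Leaving out 1 library gave 5 to 15 members for erlotinib against sunitinib. There were 8 without Sunitinib_1368 (9.68% of all genes), 5 without Sunitinib_1369 (5.77%) and 7 without Sunitinib_1370 (5.87%). There were 7 without Erlotinib_1375 (6.13%) and 5 without Erlotinib_1376 (2.97%). The range was 0 to 3 for erlotinib against sorafenib (0.00736% to 4.59% of all genes) and 2 to 7 for any difference. The last was 4 without Sunitinib_1369 (1.5%), 3 without Erlotinib_1375 (0.928%) and 2 without Erlotinib_1376 (0.464%). The median over the members ran from 0.00451 to 0.15 for sorafenib against control (0.15 without Sorafenib_1371), from 0.22 to 0.31 for erlotinib against sunitinib (0.31 without Erlotinib_1375) and from 0.19 to 0.23 for erlotinib against control. Dropping a library leaves fewer degrees of freedom, and the other causes of these shifts were not tested.

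Depth limits Hspa1a, Hspa1b, Hspa2, Hspa1l and Hspb3, the members of lowest level, most, and expected counts shared between similar genes limit 6 members, Hspb2, Cryab, Hspa1a, Hspa1b, Hspa1l and Dnaja1.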

Other observations

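The remaining gene lists are given as counts for erlotinib against sunitinib, where 5.52% of all genes tested passed as higher and 6.35% as lower. Among immediate early genes 9 were higher, Junb, Ier2, Atf3, Nr4a1, Zfp36, Btg2, Klf6, Maff and Cyr61, and Ier3 was lower. Of 11 clock genes tested, Per1 and Nr1d1 were higher and Per3 and Tef lower. Nr1d1, which represses the clock in a daily rhythm, averaged 127 CPM with erlotinib and 53.3 CPM with sunitinib (1.25 ± 0.22, edgeR adjusted p = 0.00894). Its mean was 125 CPM in control and 57.2 CPM with sorafenib. Erlotinib was thus at the control level (0.03 ± 0.22, edgeR adjusted p = 0.967), and the other 2 drugs were the low groups. The labels give no time of day. Of 8 endothelial markers Tie1 was higher (0.33 ± 0.10, adjusted p = 0.0474), and of 9 heart muscle cell markers Ryr2 was lower (-0.25 ± 0.07, adjusted p = 0.0391). Tie1 averaged 86.1 CPM with erlotinib, 68.5 CPM with sunitinib, 92.9 CPM with sorafenib and 81.2 CPM in control. The Ryr2 means were 2326, 2767, 2317 and 2167 CPM in that order. Sunitinib thus had the lowest Tie1 and the highest Ryr2 mean, and erlotinib lay nearer control. None of 8 fibroblast, 9 macrophage, 5 fat, 3 red blood cell and 3 skeletal muscle markers tested passed for erlotinib against sunitinib. Against sorafenib, the macrophage marker Fcer1g was higher and the endothelial marker Egfl7 lower with erlotinib. Fcer1g averaged 8.31 CPM with erlotinib, 5.09 CPM with sorafenib and 8.40 CPM in control. The Egfl7 means were 74.5, 101 and 73.6 CPM in that order, so erlotinib was near control for both genes. Of 10 skeletal muscle markers, Myh2 was at 0 in all libraries and 3 passed the filter on low counts.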
